A study of Mus musculus with 6 samples.

Results

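Tubulins and the proteins that bind microtubules were examined in the cochlear sensory epithelium (CSE) of mice at postnatal day 3 (P3) and at 8 weeks. A probe set, a group of short probes on the array for 1 transcript, was taken as a member when the array's annotation assigned it to a single gene, and that gene was a tubulin of the alpha, beta, gamma or epsilon class, a tubulin folding cofactor (Tbca to Tbce), a microtubule-associated protein (Map1a, Map1b, Map1s, Map2, Map4, Map6, Map7, Map9 or Mapt), an end-binding protein (Mapre1 to Mapre3), a stathmin (Stmn1 to Stmn4), Dcx or Dclk1. By this rule 100 of 45101 probe sets were members, and they covered 39 of 18193 genes named by probe sets of a single gene. Of these, 84 probe sets of 37 genes lay above the array's background on 3 or more of the 6 arrays and were tested. Tuba3b and the pseudogene Tubb2a-ps2 had no such probe set.

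Microtubules are hollow polymers of alpha and beta tubulin dimers that carry transport, build mitotic spindles and give cells their shape. The genome holds several genes for each tubulin class, the isotypes, which differ chiefly in the tail of the protein, where other proteins bind and where modifying enzymes act. In the organ of Corti, the pillar and Deiters cells that hold the hair cells in place are filled with dense microtubule bundles that form as the cochlea matures, and the afferent nerve fibres below the hair cells hold microtubules of neurons.

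Both groups were Swiss mice (Swiss Webster in the methods), and the sources used here give them no genetic change and no treatment. At each stage 60 mice gave 3 pools from separate dissections, each of 20 mice, and 1 array was hybridized per pool. The epithelia were freed of the stria vascularis, the spiral ligament and most of the spiral ganglion. At P3 they still held the greater and lesser epithelial ridges, and in the adult the inner sulcus and interdental cells that come with maturity. In such bulk tissue, fewer cells of a type and less RNA per cell cannot be told apart.

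Arrays were not alike in quality and content. On P3 replicate 1 the 3' to 5' signal ratio of the Gapdh control probe sets was 82.0, against 0.707 to 2.07 on the other 5 arrays, and its background level was 34.5, against 6.29 to 16.3. Of the markers of hair cells, 8 of 12 were measured, with summed signals of 268 to 358 at P3 and 226 to 261 in the adult. Slc26a5, which encodes the motor protein of outer hair cells, was not measured above background. All 10 supporting cell markers were measured, with sums of 11757 to 19866 at P3 and 7368 to 11944 in the adult. Of them, 4 (Tecta, Tectb, Sox2 and Jag1) were called higher at P3 and 1 (Gjb6) in the adult. The P3 sums came mostly from Tectb (4136 to 10637, against 40.1 to 253 in the adult) and Tecta (2025 to 3288, against 12.8 to 65.0). Most of the adult sums came from Gjb2 (3420 to 6202, against 1804 to 3243 at P3) and Gjb6 (2472 to 4563, against 610 to 943). The lower adult sums thus rest on Tectb and Tecta and cannot show whether supporting cells became fewer. All 5 fibroblast markers were measured, with sums of 10841 to 21616 at P3 and 5818 to 6775 in the adult, and Col3a1 was called higher at P3. The part of these cells in the values of the members higher at P3 was not tested. All 11 neuron markers were measured, and their summed signal was 4769.9 to 5628 at P3 and 24595, 8654 and 13253 on adult replicates 1, 2 and 3. Of 8 granulocyte markers, all measured, the sum was 129 to 414 at P3 and 3770.1 to 16723 in the adult. Of 9 markers of cycling cells, 8 were measured, with sums of 628 to 1071 at P3 and 185, 541 and 157 on adult replicates 1, 2 and 3.

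The beta tubulins Tubb2b, Tubb5 and Tubb6 and the neuronal protein Dcx were higher at P3, whereas Tuba4a and Tubb1 were higher in the adult. The stages were compared by limma on a log2 scale, and changes are given as log2 of adult over P3, with SE. To be called, a gene needed an adjusted p under 0.05 and a change of 2 times or more at its brightest tested probe set. Where 3 signals are listed for a stage, they belong to replicates 1, 2 and 3 in this order. Of the 37 genes, 6 were called (16.2%, against 10.1% of all 13743 genes tested). At P3 4 were higher (10.8%, against 5.54%), and in the adult 2 (5.41%, against 4.58%). The remaining 31 were not called. By limma 12 of the 37 had an unadjusted p under 0.05. The share of all genes with such a p was not counted, so this count and later ones of its kind cannot be set beside it. At the level of probe sets, 11 of 84 were called (13.1%, against 7.26% of all probe sets), 5 of them higher at P3 (5.95%, against 3.87%) and 6 in the adult (7.14%, against 3.39%). The split of 5 and 6 became 5 and 4 under quantile normalization and 2 and 0 when the arrays were scaled to the same median signal, where the calls of Tubb2b and Dcx were the ones kept. Without the intensity trend of limma it was 3 and 0, and the calls kept were those of Tubb2b, Tubb6 and Dcx. The arrays of the stages did not overlap for 11 of the 37 genes (29.7%), less than the 36.3% of all genes tested. The median log2 fold change of the 37 genes was 0.16, beside -0.04 over all genes, and it was -0.22 without adult replicate 1.

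**Figure D1:**
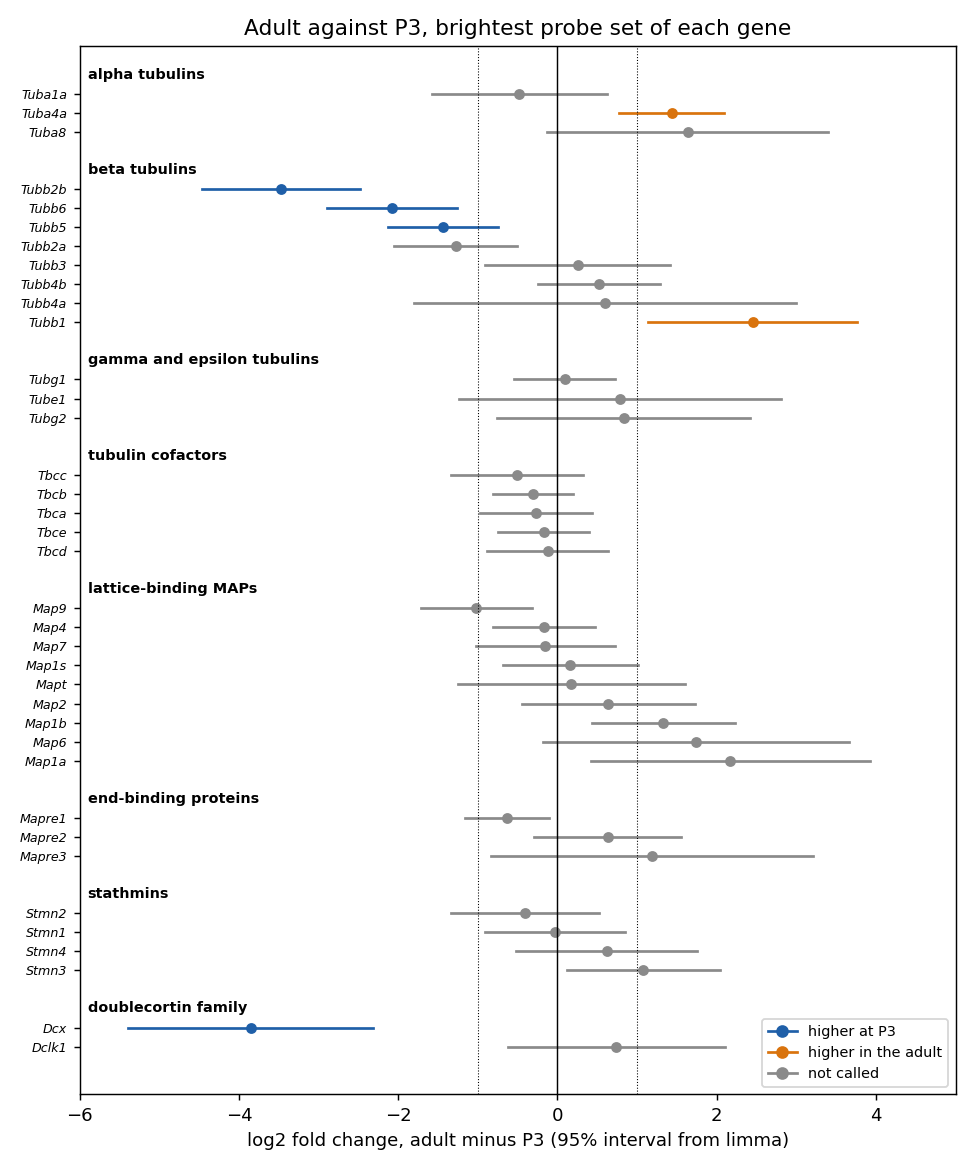
Horizontal axis, log2 of adult over P3 for each of the 37 measured genes at their brightest probe set, grouped by role, with bars for the 95% interval of limma and dotted lines at a fold of 2. Blue genes were called higher at P3, orange genes higher in the adult and grey genes were not called. The values run from -3.85 for Dcx to 2.45 for Tubb1.

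Of 8 measured beta tubulin genes, 4 had negative and 4 had positive values, and limma called Tubb2b, Tubb5 and Tubb6 as higher at P3 and Tubb1 as higher in the adult. Tubb2b encodes an isotype of migrating and growing neurons. Its signal was 1163, 1356 and 1193 at P3, then 228, 103 and 58.5 in the adult. Every P3 array exceeded every adult array by a wide margin, and adult replicate 1 was the highest of the adult arrays. Tubb2b fell by 3.47 ± 0.44 (log2 scale, SE by limma, adjusted p = 0.00366), and it was called in all 15 alternatives, with values of -3.99 to -3.01 when single arrays were left out. Tubb6, an isotype found in many tissues, had signals of 170.3, 106 and 171 at P3, then 41.4, 42.1 and 23.6 in the adult. The stages did not overlap. Tubb6 fell by 2.08 ± 0.36 (log2 scale, SE by limma, adjusted p = 0.0125), and the adjusted p was 0.0623 and 0.0565 without P3 replicate 3 and adult replicate 3. A second probe set of Tubb6, with means of 14.4 ± 8.34 at P3 and 23.3 ± 5.95 in the adult (SD, n = 3), had a log2 change of 0.87 (adjusted p = 0.467), and the mean over both was not called.

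Tubb5 is the beta tubulin of dividing and many other cells. At its brightest probe set the signal was 4460.4, 2382 and 2499 at P3, then 1200.0, 1163 and 959.6 in the adult. P3 replicate 1 stood highest, and the other P3 arrays still lay above all adult arrays. Tubb5 fell by 1.44 ± 0.30 (log2 scale, SE by limma, adjusted p = 0.0267). The second probe set gave 984, 679 and 845 at P3 and 455, 364 and 337 in the adult, a fall of 1.11 ± 0.23 (log2 scale, SE by limma, adjusted p = 0.0267), and here too the stages did not overlap. The adjusted p at the brightest probe set was 0.0526, 0.0536, 0.0583, 0.0646 and 0.143 on leaving out, in turn, P3 replicates 2 and 3, then adult replicates 1, 2 and 3, and the call was kept without P3 replicate 1. The second probe set had adjusted p of 0.0532, 0.0914, 0.0675 and 0.139 on leaving out, in turn, P3 replicates 2 and 3, then adult replicates 2 and 3, and without P3 replicate 1 it fell short of the fold needed, with a log2 change of -0.99. Tubb2a, which lies beside Tubb2b on the same chromosome in RefSeq with a noncoding gene between them, had signals of 1829, 1136 and 1115 at P3, then 847, 476 and 401 in the adult. The stages did not overlap, and Tubb2a, at -1.28 ± 0.34 (log2 fold change and SE by limma, adjusted p = 0.0556), was not called. It was called without adult replicate 1 (log2 fold change -1.60, adjusted p = 0.0261), among probe sets above background on all 6 arrays (0.0398), with signals floored at background (0.0369) and with the mean background added (0.0466).

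Tubb1 is the isotype of megakaryocytes and platelets, where it forms the marginal band. Its signal was 12.5, 12.3 and 7.48 at P3, then 49.6, 115 and 32.9 in the adult. All adult arrays were above all P3 arrays, and adult replicate 2 was the highest. Tubb1 rose by 2.45 ± 0.57 (log2 scale, SE by limma, adjusted p = 0.0376). The call was kept without P3 replicate 1 and lost without each of the other arrays, with adjusted p of 0.0876 and 0.110 on leaving out P3 replicate 2 or 3 and of 0.0878, 0.117 and 0.0776 on leaving out adult replicates 1, 2 and 3 in turn. It was also lost under quantile normalization (adjusted p = 0.0502), with the same median signal (0.0897), with signals floored at background (0.0856) and without the trend (0.0625). Of 6 markers of megakaryocytes and platelets 5 were measured, and their summed signal was 242 to 473 at P3 and 465, 1589 and 376 on adult replicates 1, 2 and 3. The chemokine Ppbp was the marker called, with a log2 change of 5.75 (limma adjusted p = 0.00823), and its signals were 132, 704 and 104 on adult replicates 1, 2 and 3. The other measured markers were not called, with log2 changes from 0.35 for Pf4 to 3.38 for Gp9. The summed granulocyte markers had the same order of adult arrays (8051, 16723 and 3770). The part of platelets or granulocytes in the Tubb1 signal was not tested.

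The other 3 beta tubulins were not called. Tubb4b, an isotype of many tissues and of cilia, had means of 1062 ± 396 at P3 and 1464 ± 284 in the adult (SD, n = 3), with a log2 fold change of 0.52 (95% interval -0.24 to 1.29). Tubb3, the isotype that marks neurons, had signals of 395, 169.8 and 229.5 at P3, then 609, 148 and 292 in the adult. Its stages overlapped, with a log2 fold change of 0.26 (95% interval -0.91 to 1.42). Tubb4a, an isotype of brain, spread widely, since its adult signals were 674, 27.1 and 125 on replicates 1, 2 and 3, a range wider than that of P3, and its log2 fold change of 0.60 had an interval of -1.80 to 3.00. Without adult replicate 1 the log2 fold changes of Tubb3 and Tubb4a were -0.26 and -0.58.

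Of 3 measured alpha tubulins, Tuba4a was higher in the adult. Tuba4a differs from most alpha tubulins in that its gene does not encode the last tyrosine of the protein. Its brightest probe set gave signals of 939.9, 714 and 696 at P3, then 2885, 2103 and 1526 in the adult. The lowest adult array stood above the highest P3 array, and Tuba4a rose by 1.44 ± 0.29 (log2 scale, SE by limma, adjusted p = 0.0224). A second probe set gave 257, 327 and 284 at P3 and 849.6, 825 and 585 in the adult, again without overlap, and rose by 1.37 ± 0.23 (log2 scale, SE by limma, adjusted p = 0.0118). At the brightest probe set the adjusted p was 0.0888 and 0.0785 on leaving out P3 replicate 2 or 3 and 0.0504 and 0.0577 without adult replicates 1 and 2, whereas the second probe set kept its call whichever array was left out. Both lost the call when arrays were scaled to the same median signal, where their log2 fold changes were 1.46 and 1.39.

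Tuba8, a divergent alpha tubulin, was measured by a pair of dim probe sets. The brighter one had signals of 27.6, 12.5 and 3.78 at P3, then 55.0, 30.9 and 23.0 in the adult, and the stages overlapped (log2 fold change 1.64, adjusted p = 0.245). The other gave 0.954, 11.4 and 1.88 at P3 and 48.9, 47.7 and 27.9 in the adult, was above background on 1 P3 array and all adult arrays, and was called with a log2 fold change of 3.88 ± 0.97 (SE by limma, adjusted p = 0.0475). With signals floored at background its log2 fold change was 1.57 (adjusted p = 0.166), and the adjusted p was 0.116, 0.142, 0.132 and 0.153 without P3 replicate 3 and adult replicates 1, 2 and 3. Tuba1a, the main alpha tubulin of developing neurons, had signals of 12995, 4755 and 3776 at P3, then 5520.3, 3696 and 4233 in the adult. P3 replicate 1 stood apart, the other 5 arrays lay close together, and without P3 replicate 1 the log2 fold change of -0.48 became 0.06. The probe set of Tuba1a carries the suffix _x_at, by which Affymetrix marks probes that may also bind similar transcripts. Among the 37 brightest probe sets 7 ended in _s_at or _x_at (those of Tuba1a, Tubb2a, Tube1, Tbca, Tbcd, Stmn1 and Stmn3), and none of the 7 was called by limma (2 at an unadjusted p under 0.05).

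**Figure D2:**
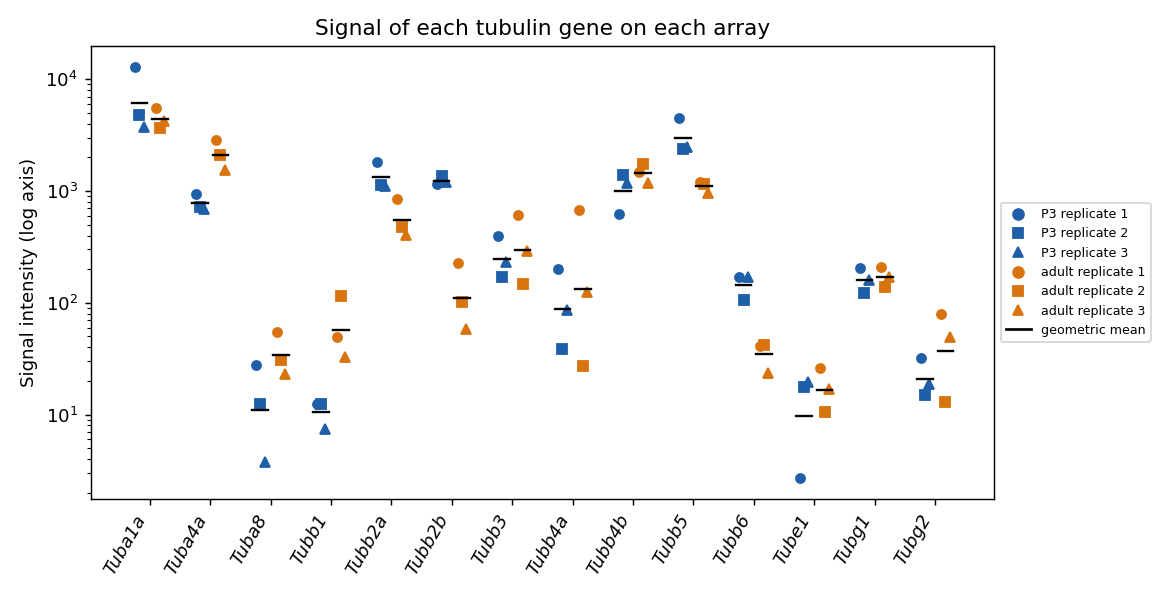
Signal intensity (vertical log axis) of 14 measured tubulin genes at their brightest probe set on each of the 6 arrays, P3 in blue and adult in orange, with a different marker per replicate and a black line at the geometric mean of each stage. The blue points of Tubb2b lie between 1163 and 1356 and its orange points between 58.5 and 228.

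The promoters of genes called in either direction are shown so that their sequences can be set beside the direction of change. RefSeq windows of 300 bases (250 before and 50 after the start of transcription, build GRCm38.p6) were found for 29 of the 39 genes, 34 windows in all, and none was found for Tubb2b or Tubb6. Searched on both strands, the GC box GGGCGG was in 19 of these 34 windows (55.9%, against 35.7% of all 32851 windows), the CCAAT box CCAAT in 17 (against 37.4%), the TATA box TATAAA in 7 (20.6%, against 13.6%), the E-box CAGCTG in 7 (20.6%, against 16.3%) and the GATA site AGATAA in 4 (11.8%, against 11.2%). CCAAT and its reverse complement can share bases, as in Tubb1. Some genes gave more than 1 window, so the windows are not independent. The 2 windows of Dcx overlap, and their shared TATA box was counted in each. Below, 5′ to 3′ on the strand of the gene, capitals mark every match. Tubb5 (chr17:35838252-35838551, minus strand) and Dcx (the first of 2 windows, chrX:143933170-143933469, minus strand) were higher at P3, and Tuba4a (chr1:75219245-75219544, minus strand) and Tubb1 (chr2:174450345-174450644, plus strand) in the adult.
Tubb5: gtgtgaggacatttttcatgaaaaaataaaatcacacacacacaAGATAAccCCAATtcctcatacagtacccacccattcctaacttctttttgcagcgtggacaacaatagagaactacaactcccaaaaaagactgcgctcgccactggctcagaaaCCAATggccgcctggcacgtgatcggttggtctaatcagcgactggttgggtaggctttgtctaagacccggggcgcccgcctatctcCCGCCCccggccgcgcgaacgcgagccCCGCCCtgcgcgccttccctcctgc
Dcx: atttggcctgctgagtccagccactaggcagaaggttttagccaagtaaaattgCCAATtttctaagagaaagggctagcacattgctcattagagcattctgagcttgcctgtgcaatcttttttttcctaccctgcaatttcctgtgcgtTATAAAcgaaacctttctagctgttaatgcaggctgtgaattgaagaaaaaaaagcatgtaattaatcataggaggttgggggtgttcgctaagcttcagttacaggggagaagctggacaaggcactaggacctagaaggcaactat
Tuba4a: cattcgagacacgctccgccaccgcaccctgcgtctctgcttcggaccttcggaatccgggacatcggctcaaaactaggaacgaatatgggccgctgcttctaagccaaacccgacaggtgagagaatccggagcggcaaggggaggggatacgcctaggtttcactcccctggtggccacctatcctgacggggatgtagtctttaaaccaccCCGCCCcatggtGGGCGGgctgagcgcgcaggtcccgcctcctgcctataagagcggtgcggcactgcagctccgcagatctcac
Tubb1: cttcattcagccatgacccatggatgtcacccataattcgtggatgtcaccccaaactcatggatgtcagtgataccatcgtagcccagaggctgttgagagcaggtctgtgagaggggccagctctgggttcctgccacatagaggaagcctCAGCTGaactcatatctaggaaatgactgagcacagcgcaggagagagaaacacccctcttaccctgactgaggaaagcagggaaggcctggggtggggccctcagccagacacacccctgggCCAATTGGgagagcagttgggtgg

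The Tubb5 window held 2 GC boxes, 2 CCAAT boxes and 1 GATA site, and that of Dcx 1 CCAAT box and 1 TATA box. The Tuba4a window held 2 GC boxes and no other searched motif, and that of Tubb1 held CCAAT matches on both strands and 1 E-box. Of these 4 windows, CCAAT was thus in those of Tubb5, Dcx and Tubb1, and the GC box in those of Tubb5 and Tuba4a. A match of letters is not a measured binding site.

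Gamma and epsilon tubulins, which act at centrosomes and basal bodies, were not called by limma (0 of 3 also at an unadjusted p under 0.05). Tubg1, the gamma tubulin of most cells, had signals of 205, 123 and 161 at P3, then 209, 137 and 170.4 in the adult. The stages overlapped throughout, with a log2 fold change of 0.09 and a narrow 95% interval of -0.55 to 0.73. Tubg2 and Tube1 were dim, with log2 fold changes of 0.83 and 0.78 and intervals of -0.76 to 2.42 and -1.24 to 2.80. A second tested probe set of Tube1 had the opposite sign, with a log2 fold change of -1.01 (limma adjusted p = 0.399). The 5 tubulin cofactors fold alpha and beta tubulin and join them into dimers. At their brightest probe sets all had small negative values between -0.51 (Tbcc) and -0.12 (Tbcd). There none was called by limma, 0 of the 5 had an unadjusted p under 0.05, and the stages overlapped in each case. Another probe set of Tbca did not overlap, with 1137, 1388 and 1231 at P3, then 908, 996 and 830 in the adult. It was not called (log2 fold change -0.46, limma adjusted p = 0.241). A second, dim probe set of Tbcc had a log2 fold change of 0.12. Tbcb, the cofactor that binds alpha tubulin, had means of 951 ± 162 at P3 and 765 ± 44.7 in the adult (SD, n = 3). Tbca, which binds beta tubulin, had means of 2147 ± 796 at P3 and 1709.9 ± 239 in the adult (SD, n = 3). Without P3 replicate 1 the log2 fold changes of Tbca and Tbcd were 0.01 and 0.22.

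Of 9 proteins that bind along the microtubule wall, none was called by limma at its brightest probe set (3 at an unadjusted p under 0.05), and 6 of the 9 had positive values. Map1a, a protein of mature axons and dendrites, had the largest value of the 9. Its brightest probe set gave 101, 38.5 and 62.0 at P3, then 872, 79.6 and 318 in the adult. Adult replicate 1 was highest and adult replicate 2 fell within the P3 range, and the log2 fold change of 2.17 had a wide 95% interval of 0.42 to 3.93 (adjusted p = 0.130). Without adult replicate 2 it was called, with a log2 fold change of 3.08 (adjusted p = 0.0236). A second probe set of Map1a gave 28.0, 29.6 and 35.6 at P3 and 277, 61.4 and 227 in the adult. Here the stages did not overlap, and it was called (2.34 ± 0.54 on the log2 scale by limma, adjusted p = 0.0355), with adjusted p of 0.0555, 0.0888, 0.0769, 0.105 and 0.168 on leaving out, in turn, P3 replicates 1, 2 and 3, then adult replicates 1 and 3.

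Map1b, the related protein of growing axons, had signals of 164, 415 and 392 at P3, then 643, 1076 and 610.3 in the adult. Adult arrays were above all P3 arrays, with a log2 fold change of 1.33 that missed the call (adjusted p = 0.0810). Map9, a protein of spindles and cilia, went the other way, with signals of 149.6, 168 and 144 at P3, then 113, 58.2 and 66.3 in the adult. Its stages did not overlap, with log2 fold changes of -1.02 and -1.57 at its brightest and second probe sets (adjusted p = 0.0849 and 0.0643), and without adult replicate 1 the brightest was called (-1.31, adjusted p = 0.0336). The third tested probe set of Map9 overlapped between stages and had a log2 change of 0.52. Map4, the main microtubule-binding protein of cells outside the nervous system, differed little, with means of 471 ± 29.9 at P3 and 435 ± 137 in the adult (SD, n = 3) and a 95% interval of -0.81 to 0.47 for its log2 fold change. Map7, a protein of epithelial microtubules that recruits kinesin, had means of 100.0 ± 34.3 at P3 and 88.9 ± 28.3 in the adult (SD, n = 3), and Map1s had 59.3 ± 17.9 at P3 and 65.6 ± 17.3 in the adult (SD, n = 3). The neuronal proteins Map2, Map6 and Mapt (tau) had log2 fold changes of 0.64, 1.74 and 0.17, with intervals of -0.45 to 1.73, -0.18 to 3.66 and -1.25 to 1.60.

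No end-binding protein, the family that tracks the growing plus end, was called by limma (1 of 3 at an unadjusted p under 0.05). Mapre1, the most widely expressed of the family, had signals of 1420.0, 1127 and 1163 at P3, then 664, 911 and 823 in the adult. The stages did not overlap, and the log2 fold change was -0.63 (SE 0.23, adjusted p = 0.138). Mapre2 had means of 2148 ± 243 at P3 and 3684 ± 2093 in the adult (SD, n = 3) and a log2 fold change of 0.63, and Mapre3, the neuronal member, had 1.19 with a 95% interval of -0.84 to 3.21.

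The stathmins, which bind free tubulin dimers and favour disassembly, were not called by limma either (1 of 4 at an unadjusted p under 0.05). Stmn1, the member of dividing and immature cells, had signals of 4637, 2226 and 2195 at P3, then 3933, 2489 and 2169 in the adult. Replicate 1 of each stage was high and the stages overlapped almost fully, with a log2 fold change of -0.03 (95% interval -0.91 to 0.85). A second probe set of Stmn1 gave 44.5, 262 and 299.6 at P3 and 141, 181 and 101 in the adult. There P3 replicate 1 was the lowest array, and the log2 fold change of -0.15 was not called (limma adjusted p = 0.92). Stmn3, a neuronal member, had 2078, 1249.7 and 1500.0 at P3, then 6281, 2122 and 2756 in the adult. Every adult array was above every P3 array, and the log2 fold change was 1.08 (adjusted p = 0.164). A second probe set of Stmn3 gave 1.21 (adjusted p = 0.0849). Stmn2, known from growing axons, and Stmn4 had log2 fold changes of -0.41 and 0.62, and for both the adult arrays, at 934, 274 and 399 and 266, 61.9 and 108, spanned the whole P3 range.

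Dcx, the protein of migrating young neurons, was at its brightest probe set above background at P3 alone. The signals were 55.6, 71.5 and 73.3 at P3, then 8.16, 1.81 and 6.53 in the adult. All P3 arrays were above background and no adult array was. At this probe set Dcx was thus at least 6.10-fold higher at P3, with a fitted log2 fold change of -3.85 ± 0.67 (SE by limma, adjusted p = 0.0131). The adjusted p was 0.0648 and 0.0665 on leaving out P3 replicate 2 or 3. A second tested probe set of Dcx had signals of 1.34, 32.0 and 89.7 at P3, then 3.65, 2.07 and 9.78 in the adult. It was low on P3 replicate 1, the array with the high 3' to 5' ratio, and was not called (log2 fold change -1.90, limma adjusted p = 0.491). The mean over both tested probe sets was not called either.

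Dclk1, a kinase with doublecortin domains, was measured by 8 probe sets, and the values differed among them. The brightest had signals of 649.8, 1251 and 1339 at P3, then 611, 3073 and 2697 in the adult. Adult replicate 1 was the lowest array of all, the other adult arrays were the highest, and the log2 fold change of 0.74 was not called (adjusted p = 0.500). Another probe set of Dclk1 gave 94.8, 69.0 and 107 at P3, then 196, 858 and 829 in the adult. Its stages did not overlap, and it was called with a rise of 2.55 ± 0.54 (log2 scale, SE by limma, adjusted p = 0.0263). The adjusted p was 0.0721 and 0.0560 on leaving out P3 replicate 2 or 3, and 0.0719 and 0.122 without adult replicates 2 and 3. One more probe set had a value of 1.54 (adjusted p = 0.101), and the other 5 lay between 0.77 and 0.90. RefSeq lists Dclk1 with more than 1 start of transcription, and which transcripts each probe set reads was not tested.

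**Figure D3:**
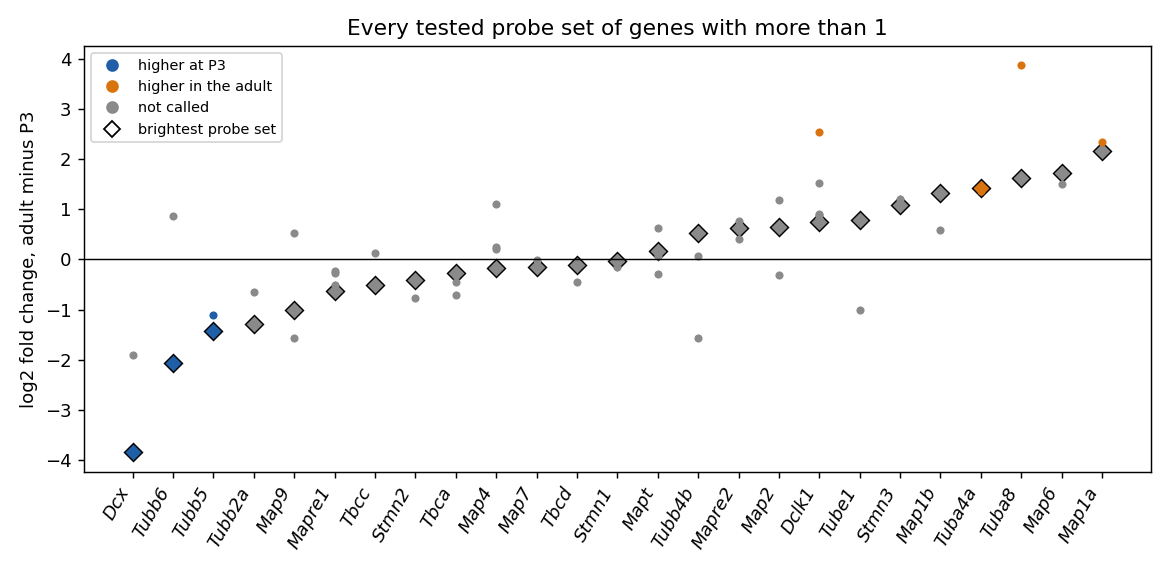
Vertical axis, log2 of adult over P3 for every tested probe set of the 25 genes that had more than 1, in order of the brightest probe set, which is drawn as a diamond. Calls are coloured blue (P3 higher) or orange (adult higher), with all else grey. All tested probe sets lay on the same side of 0 for 17 of the 25 genes, and Dclk1 spans 0.74 to 2.55.

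Many members had their highest adult signal on replicate 1. Of the adult arrays this one also had the highest 3' to 5' ratio of Gapdh (2.07, against 0.921 and 1.22 on replicates 2 and 3). Its background was the highest as well (16.3, against 9.05 and 8.71). Of the 37 genes 20 ranked adult replicate 1 over replicate 3 over replicate 2 (54.1%, against 27.5% of all genes tested), and so did 8 of the 11 neuron markers. The summed markers of Schwann cells (4 of 6 measured; 9339, 3082 and 5266 on adult replicates 1, 2 and 3) and of oligodendrocytes (4 of 6 measured; 14074, 3824 and 7674) had the same order. Each sum came mostly from 1 gene, Pmp22 in the former (7191, 2306 and 4030) and Mbp in the latter (12076, 2821 and 6506). In the oligodendrocyte list Mobp was called higher in the adult (log2 fold change 6.96, limma adjusted p = 0.0168). Its signals were 877, 20.4 and 74.2 on adult replicates 1, 2 and 3. Mbp, Cldn11 and Opalin were not called, with log2 fold changes of 0.62, 0.67 and 0.01. Tubg1, Map4 and Tbcd, known from other cells, were among the 20, with ratios of adult replicate 1 to adult replicate 2 of 1.52, 1.91 and 1.31. Map1b, Dclk1 and Tubb2b, known from neurons, were not among them. The ratio of adult replicate 1 to adult replicate 2 was 24.9 for Tubb4a, 11.0 for Map1a, 6.52 for Map6, 6.19 for Mapre3, 5.19 for Mapt and 4.13 for Tubb3. Map6, which makes neuronal microtubules resist cold, had 5.0, 16.9 and 25.3 at P3, then 96.6, 14.8 and 55.5 in the adult, and Mapt had 211, 63.6 and 106 at P3, then 271, 52.3 and 144 in the adult. Map2, of dendrites, had 215, 389.6 and 442 at P3, then 966, 258 and 561 in the adult, and Mapre3 had 139, 14.8 and 28.6 at P3, then 200.3, 32.4 and 107 in the adult. In each of these the adult arrays were further from one another than the means of the stages. Snap25, a neuron marker of the synapse, had 6511, 2609 and 3582 on adult replicates 1, 2 and 3 and 440.1, 571 and 682 at P3. Snap25 thus rose in the adult (log2 fold change 2.82, adjusted p = 0.00395) with the same order of arrays, while Gap43, the growth cone protein, fell by 3.38 (adjusted p = 0.0114). Of the 11 neuron markers 3 were called higher in the adult and 1 at P3, beside 4.58% and 5.54% of all genes tested. Tubb2b also had its highest adult signal on replicate 1, and it was called without that array (log2 fold change -3.99). The part that neurons, Schwann cells, oligodendrocytes or the quality of the array had in these values was not tested.

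**Figure D4:**
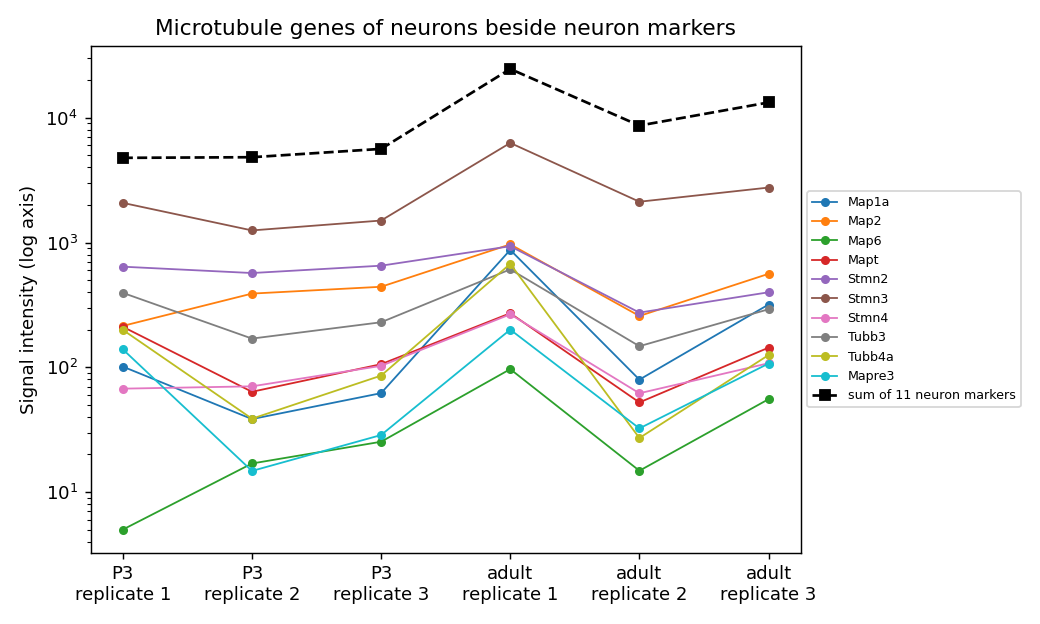
Signal intensity (vertical log axis) of 10 microtubule genes known from neurons on each of the 6 arrays, with the summed signal of 11 neuron markers as black squares. The 10 genes were chosen after their values were seen. Each of them is higher on adult replicate 1 than on adult replicate 2, where the marker sum is 24595 and 8654.

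Other genes that act on microtubules were taken from 6 lists of 92 genes, none of them a member. Of the 85 measured, 5 were called higher at P3 and 2 in the adult, beside 5.54% and 4.58% of all genes. The share called was thus near that of all genes at P3 and below it in the adult. The median log2 fold change of the 85 genes was -0.26, beside -0.04 over all genes. The 17 measured tubulin-modifying enzymes held 2 called each way. Vash2, a vasohibin that removes the last tyrosine of alpha tubulin, had signals of 261, 149.5 and 143 at P3, then 20.4, 8.93 and 11.6 in the adult. P3 arrays were all far above the adult ones, and Vash2 fell by 3.79 ± 0.43 (log2 scale, SE by limma, adjusted p = 0.00252), a call kept in all 13 alternatives run for it. Svbp, the small partner protein that vasohibins need, had 1100.5, 626 and 654 at P3, then 247, 370.2 and 259 in the adult. It fell by 1.42 ± 0.29 (log2 scale, SE by limma, adjusted p = 0.0233) with no overlap of the stages, though the adjusted p was 0.0534, 0.0654 and 0.118 without P3 replicate 3 and adult replicates 1 and 3.

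Ttll3, which adds glycine to tubulin, rose from a mean of 19.4 ± 10.4 to 78.5 ± 30.1 (SD, n = 3), that is by 2.06 on the log2 scale (adjusted p = 0.0458). Agtpbp1, which shortens glutamate chains on tubulin, rose by 1.06 (adjusted p = 0.0458), from 103, 102 and 107 at P3 to 262, 158 and 244 in the adult. Both were close to the threshold, and both lost the call when any of P3 replicates 2 and 3 and adult replicates 1 and 3 was left out, with adjusted p between 0.113 and 0.218, and Agtpbp1 also without P3 replicate 1 (adjusted p = 0.0538). Of 6 measured severing enzymes Spast, which encodes spastin, was higher at P3, with 547, 473 and 444 at P3 against 236, 183 and 169.5 in the adult. It fell by 1.32 ± 0.22 (log2 scale, SE by limma, adjusted p = 0.0113), and the adjusted p was 0.0701 without adult replicate 3.

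Of 19 mitotic spindle proteins limma called 2 as higher at P3 and 0 as higher in the adult, beside 5.54% and 4.58% of all genes tested. At an unadjusted p under 0.05 there were 8 of the 19, and the median log2 fold change was -1.17. Nusap1, which bundles spindle microtubules, fell by 1.67 ± 0.41 (log2 scale, SE by limma, adjusted p = 0.0432), and Haus1, of the augmin complex that branches spindle microtubules, by 1.42 ± 0.26 (log2 scale, SE by limma, adjusted p = 0.0153). With single arrays left out, Nusap1 kept its call without adult replicate 2, and the adjusted p was 0.0640, 0.0758, 0.137, 0.0926 and 0.157 on leaving out, in turn, P3 replicates 1, 2 and 3, then adult replicates 1 and 3. Haus1 had adjusted p of 0.0587, 0.0725 and 0.0841 on leaving out, in turn, P3 replicates 2 and 3, then adult replicate 3. Of 8 measured markers of cycling cells 4 were called higher at P3, beside 5.54% of all genes tested. The part of cycling cells in the values of Tubb5, Stmn1 and the spindle proteins was not tested. Of 18 genes of tubulin folding, 14 of the gamma-tubulin ring and centrosome and 11 of the microtubule ends, none was called by limma (5, 3 and 3 at an unadjusted p under 0.05). The chaperonin subunit Cct2, which folds new tubulin, had means of 2180.1 ± 291 at P3 and 1176 ± 29.6 in the adult (SD, n = 3) and missed the call (log2 fold change -0.88, adjusted p = 0.0504). The subunit Cct6a had a log2 change of -0.25. Akap9 and Mzt1, of the centrosome list, had log2 fold changes of 0.05 and -0.12, and Clasp1 and Clasp2, which stabilise plus ends, had -0.07 and 0.83.

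**Figure D5:**
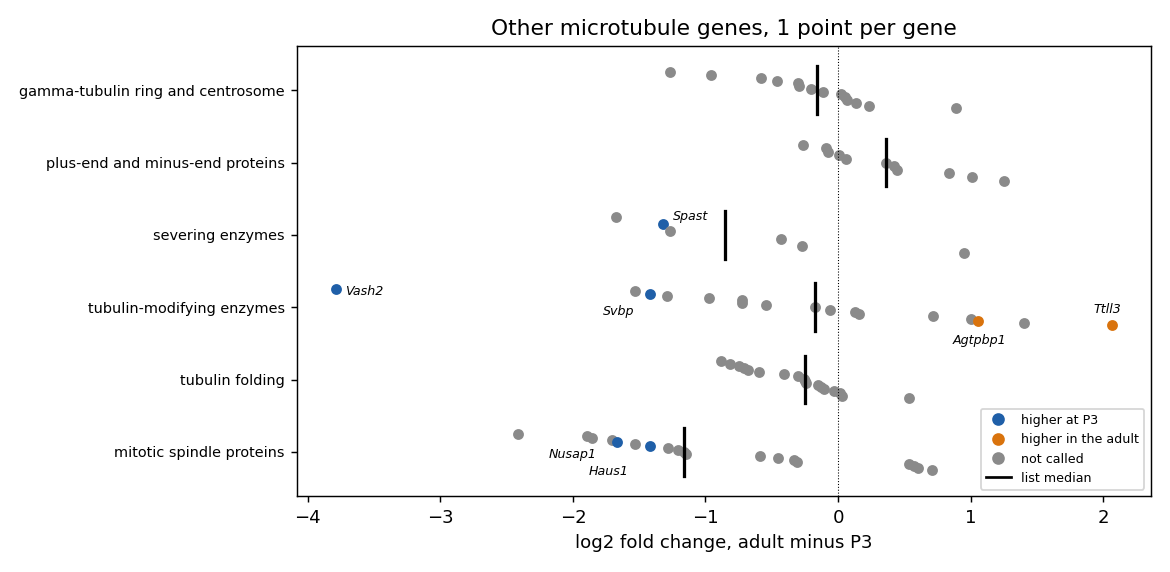
Horizontal axis, log2 of adult over P3 for 85 measured genes in 6 lists of other microtubule genes, each gene a point, lists ordered from top to bottom and their medians drawn in black. Calls are coloured blue (P3 higher) or orange (adult higher), with all else grey. The values run from -3.79 for Vash2 to 2.06 for Ttll3.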

How the data were processed

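Each of 6 pools was hybridized to an Affymetrix Mouse Genome 430 2.0 array. The deposited unit is signal intensity (linear), which the authors obtained with MAS5.0 (GCOS 1.2 in the submitters' processing notes, another version in the methods), each array being scaled to a mean of 100 without its extreme 2% at either end. No further normalization was applied. Genes came from an annotation of 2016. The background of an array was the 90th percentile over 83 probe sets of olfactory, vomeronasal and bitter taste receptors, and 29036 probe sets above it on 3 or more arrays were tested.

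limma 3.58.1 in R 4.3.3 (lmFit, then eBayes with its trend option) compared 3 adult with 3 P3 arrays on log2 signals, with Benjamini-Hochberg adjustment over all 29036. The fit was tested on simulated data. An exact permutation test of 3 against 3 cannot go below 0.1. The methods used SAM, which was not run here. The labels state no pairing across stages beyond a shared replicate number, and the correlations of same-numbered samples are given below.

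All members could be named, and of each list of other microtubule genes up to 4 called genes per direction or, with none called, 2 of highest mean signal. Members and lists were chosen with earlier results of these data known. For a fold given as "at least", adult signals at background were raised to it. Alternatives covered normalization, filters, low signals, the trend, the replicate block, gene means and each array left out.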

Additional observations from a re-analysis of the deposited data

Results flagged for a closer look

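Of 7 probe sets that name a member together with a second gene, which no comparison above used and which were singled out for that reason, 4 were above background on all 6 arrays, 6 were tested, and none of these was called by limma (2 at an unadjusted p under 0.05). The geometric mean signal over the 6 arrays was 6883 for the probe set naming Gm5620 and Tuba1b, 131 for that naming Gm6682 and Tuba1c, and 93.9 and 42.1 for a pair of probe sets naming Tuba3b and Tuba3a. Tuba1b and Tuba1c, alpha tubulins of many tissues, were thus detected only together with a second gene name. The log2 change from P3 to the adult was 0.26 for the former and -0.48 for the latter, and -1.13 at another probe set naming Gm6682 and Tuba1c (limma adjusted p = 0.341). The probe set naming Tubb2a-ps2 and Tubb2b had a log2 change of -3.21 (limma adjusted p = 0.0893).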

How the results depend on the processing

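Of 713 comparisons of 49 probe sets or genes with alternative settings, 583 kept sign and call, 96 lost a call, 10 gained a call and 24 changed sign, all 24 in values that were not called. The number of probe sets called (2109) was 562 with the same median signal and 899 without the intensity trend, and 576 to 2839 when single arrays were left out. Of member probe sets, the 5 higher at P3 became 2 with the same median, 8 with floored signals, 3 without the trend and 1 to 7 with an array left out, and the 6 higher in the adult became 0, 3 (above background on all 6 arrays), 0 without the trend and 1 to 5. Of member genes, the 4 higher at P3 became 2 with the same median, 2 as means over probe sets and 1 to 5 with an array left out. The 2 higher in the adult became 1 under quantile normalization, 0 with the same median, 1 above background on all arrays, 1 with floored signals, 0 without the trend and 0 to 2 with an array left out. Of other microtubule genes, the 5 higher at P3 became 1 with the same median, 10 with floored signals, 1 without the trend and 1 to 6 with an array left out, and the 2 in the adult became 1, 4, 0 and 0 to 3, with 0 without a filter and 1 as means. Of markers, the 10 higher at P3 became 5 with the same median, 6 without the trend and 5 to 12, and the 13 in the adult became 6 above background on all arrays and 11 to 16 with an array left out. The labels state no pairing. With the replicate number as a block, 6 and 9 member probe sets and 5 and 4 member genes were called, Tubb2a among the genes. In the adult 4 other microtubule genes were called with this block. Deviations of same-numbered samples correlated at 0.18, 0.21 and 0.08, and those of unlike numbers at -0.20 to 0.05. Whether same-numbered samples were handled together was not tested. Where the sign changed with an array left out, log2 changes ran from -0.12 to 0.35 for Map1s, -0.35 to 0.12 for Map4, -0.48 to 0.11 for Map7, -0.38 to 0.81 for Mapt, -0.28 to 0.32 for Stmn1, -0.49 to 0.0086 for Tbca, -0.42 to 0.22 for Tbcd, -0.83 to 0.061 for Tuba1a, -0.26 to 0.76 for Tubb3, -0.58 to 1.74 for Tubb4a, -0.14 to 1.28 for Tube1 and -0.095 to 0.27 for Tubg1. Sign also changed for Stmn1 under quantile normalization (0.0098), for Tube1 with floored signals (-0.45) and, as means over probe sets, for Map4 (0.24), Tubb4b (-0.33) and Tube1 (-0.11). The cause was not tested. Dim genes such as Tubb1, Tuba8 and Dcx lie near background, which limits their values.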
